A study of Mus musculus with 3 samples.

Results

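The antigen receptor loci other than kappa were examined for PU.1 peaks in i660BM cells, which are cultured C57BL/6 pro-B cells with a PU.1 gene switched on by doxycycline. The members were all replicate 2 peaks that overlapped by at least 1 bp the immunoglobulin heavy chain locus (Igh), the lambda light chain locus (Igl), the joint T cell receptor alpha and delta locus (Tra/Trd) or the T cell receptor beta locus (Trb). The windows in build mm10 were chr12:113220000-116009954 for Igh, chr16:19026000-19260844 for Igl, chr14:52427967-54224198 for Tra/Trd and chr6:40891296-41558371 for Trb. They held 246 of the 74494 replicate 2 peaks of the series. The replicate 3 list had 17 of its 6169 peaks there, and the merged list, which gives positions only, had 162 of its 49385 intervals there.

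The group was PU.1 chromatin immunoprecipitation (ChIP) from cells that were grown with IL-7 and given doxycycline at 70 ng/ml over 24 h, with 2 libraries labelled replicate 2 and replicate 3. An input library, labelled with no antibody and no treatment, was not analysed here, and neither were uninduced cells. Nothing in the labels says whether the libraries came from separate cultures, and the cells are 1 line with an induced factor. Which receptor segments this line has rearranged is not given in these sources. All values below therefore describe induced cells, with no comparison between conditions.

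Each antigen receptor locus holds many variable (V) segments, a few diversity (D) and joining (J) segments and the constant (C) genes, and a V segment is brought to a D or J segment by recombination in developing lymphocytes. Igh is rearranged first in pro-B cells, the light chain loci follow, and the T cell receptor loci are rearranged in thymocytes. Enhancers lie near the C genes of each locus. PU.1 is an ETS family factor that binds GGAA cores, and in B cells it is known at the kappa and lambda enhancers together with IRF4 and at the heavy chain intronic enhancer. Here the stretch with the D, J and C segments and their flank is called the enhancer side, and the stretch with the V segments the V side. Igl alternates, so each of its sides has several pieces.

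The score of a peak is the peak caller's own value, taken as minus 10 times log10 of p, and it depends on library depth. Scores start at about 70 and pile up at 3100, where p is too small to hold. A peak at 3100 can therefore not be ranked below one with a higher score. The depth of the libraries is unknown, since the files give no read counts. Replicate 3 had 6169 peaks against 74494 in replicate 2, so a peak that was not in replicate 3 was not detectable in that list, which does not show that it was absent.

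The RefSeq promoter table held 24 promoters of 300 bases inside the windows, none of them of a V segment. Only the promoter of Gm30996, a long non-coding RNA gene among the distal Igh V segments, lay under a replicate 2 peak. That peak was chr12:115407013-115408084, with a score of 144 and no replicate 3 peak. Over all 32851 promoters of the table, 27.5% lay under a replicate 2 peak. The promoter spans chr12:115407364-115407663 on the plus strand (RefSeq, GRCm38.p6), and it is shown because it is the one promoter here that the data bear on; capitals mark GGAA and its reverse complement TTCC.
Gm30996 promoter: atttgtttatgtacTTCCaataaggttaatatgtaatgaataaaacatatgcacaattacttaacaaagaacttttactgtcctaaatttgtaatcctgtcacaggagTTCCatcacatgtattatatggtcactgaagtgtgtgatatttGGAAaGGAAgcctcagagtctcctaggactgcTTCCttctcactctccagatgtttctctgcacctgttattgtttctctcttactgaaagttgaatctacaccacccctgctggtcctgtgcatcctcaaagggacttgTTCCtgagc
It held 6 GGAA cores on both strands, against a median of 3 over all promoters, and 96.0% of all promoters held at least 1. The longer motif GAGGAA, which contains GGAA, was not in this window, and 28.3% of all promoters held it. The motifs GAGGAAGT, ATTTGCAT (the octamer) and the ETS-IRF composite were also not in it, and 3.20%, 1.74% and 2.72% of all promoters held them.

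The loci differed in how densely they were covered. Igh held 143 replicate 2 peaks, or 51.3 per Mb (95% exact Poisson interval 43.2 to 60.4). Igl held 17, or 72.4 per Mb (42.2 to 116). Tra/Trd held 71, or 39.5 per Mb (30.9 to 49.9), and Trb held 15, or 22.5 per Mb (12.6 to 37.1). The 4 loci together had 44.8 peaks per Mb (39.4 to 50.8), against 27.5 per Mb (27.3 to 27.7) in the rest of the series. Igh, Igl and Tra/Trd lay above the rest of the series with their whole intervals, whereas the Trb interval included it. The kappa locus (Igk), with 244 peaks and 76.9 per Mb (67.6 to 87.2), was denser than Igh and Tra/Trd, and its interval overlapped that of Igl. Peak density varied along the genome: tiles of 1 Mb had a median of 23 peaks, with quartiles of 13 and 39, and 5% of them held more than 63. Igh and Tra/Trd lay between the upper quartile and that upper mark, and the short Igl window lay above it. However, the Tra/Trd interval included the quartile and the Igl interval included the mark. Igl, at 0.235 Mb, is also shorter than a tile, so its place among the tiles is not like for like. The intervals cover counting error only.

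**Figure D1:**
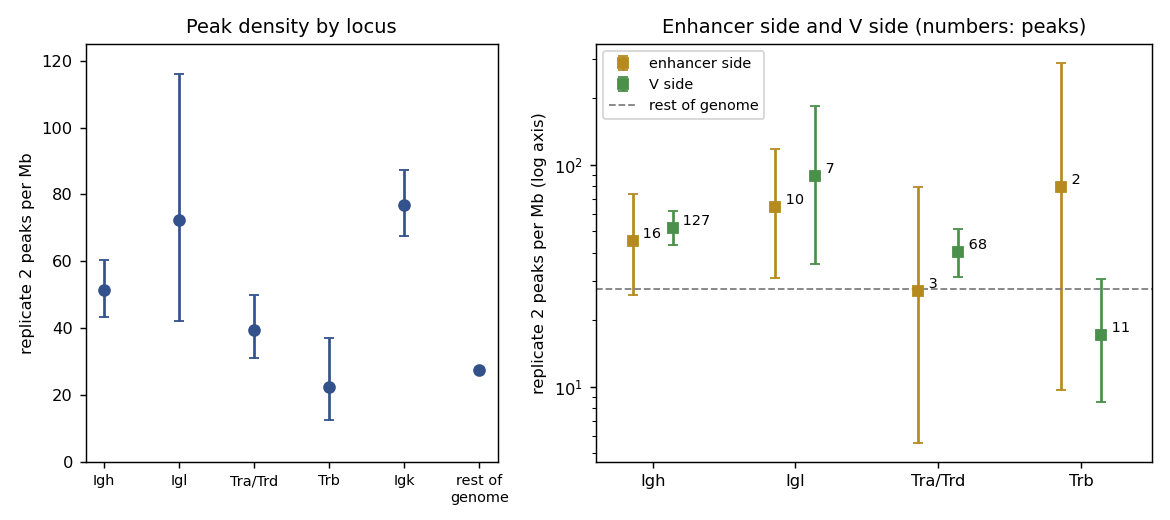
Replicate 2 peaks per Mb in each locus, in Igk and in the rest of the genome (left), and on the enhancer side and V side of each locus on a log axis (right). Points are densities, bars 95% exact Poisson intervals and numbers the peaks counted. Igl and Igk are highest, Trb lies with the rest of the genome at 27.5 per Mb, and the intervals of the sides of a locus overlap in all 4 loci.

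Peaks in the receptor loci were of ordinary strength. The median replicate 2 score was 200.1 in Igh, 186 in Igl, 199 in Tra/Trd and 214 in Trb, against 232 in the rest of the series and 283 in Igk. A score of 1000 or more was reached by 34 of the 246 peaks (13.8%), against 17.6% of the peaks in the rest of the series. Peaks were called by the authors per library, so these scores rank peaks within the replicate 2 list only.

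Of the 246 peaks, 17 (6.91%, 95% Clopper-Pearson interval 4.08 to 10.8) overlapped a replicate 3 peak by at least 1 bp. In the whole replicate 2 list the share was 8.24%, so the share in the loci was near the background. It was 11 of 143 in Igh (7.69%, 3.90 to 13.3), 1 of 17 in Igl (5.88%, 0.149 to 28.7), 5 of 71 in Tra/Trd (7.04%, 2.33 to 15.7) and 0 of 15 in Trb (0 to 21.8). For Trb, 3 counts over the 15 peaks, the limit that a count of 0 allows, come to a share of 20.0%. In Igk it was 27 of 244 (11.1%, 7.42 to 15.7). A merged interval lay at 161 of the 246 peaks (65.4%), against 66.5% of the whole list, and all 17 peaks with a replicate 3 peak had one.

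Recovery in replicate 3 followed the replicate 2 score. None of the 212 peaks in the loci with a score under 1000 had a replicate 3 peak. In the rest of the series such peaks were rare too, with 0.605% between 500 and 1000 and lower shares below that. Between 1500 and 2000, 6 of 11 peaks in the loci did (54.5%, 23.4 to 83.3), against 31.8% in the rest of the series, which lies inside that interval. Between 2000 and 2500, 4 of 6 did (66.7%), against 61.6% in the rest of the series. All 6 peaks from 2500 upwards, all of them in Igh, were recovered. In the rest of the series the share was 83.0% from 2500 to 3100 and 97.1% from 3100 upwards. The 2 peaks between 2000 and 2500 without a replicate 3 peak were both in Trb.

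**Figure D2:**
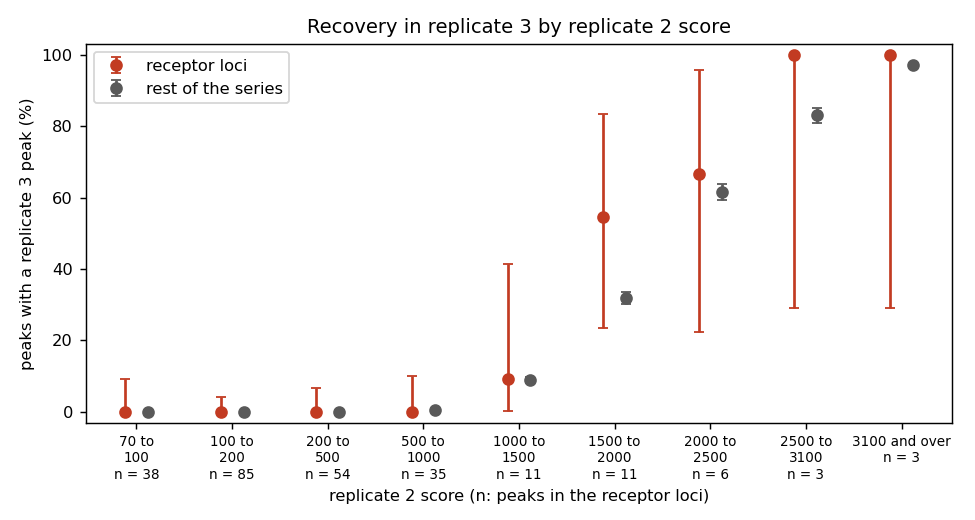
Share of replicate 2 peaks that overlap a replicate 3 peak, by replicate 2 score, for the receptor loci and the rest of the series. Bars are 95% Clopper-Pearson intervals, and n counts the peaks in the loci. At each score the interval for the loci includes the share in the rest of the series, for example 31.8% between 1500 and 2000.

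On the enhancer side of Igh, the strongest peak lay beyond Igha, the alpha constant gene at the far end of the C genes, where the 3′ regulatory region of the locus is known to lie. This peak, chr12:113242100-113243307, had a score of 2561 in replicate 2 and 164 in replicate 3, and lay 12.9 kb beyond Igha. It was the only peak of the enhancer sides that was found in both libraries. The flank of 36.2 kb beyond Igha held 5 replicate 2 peaks, the next strongest being chr12:113221753-113222873 with a score of 1481 and no replicate 3 peak. A further peak, chr12:113217465-113218605, lay just outside the window on the same side, with scores of 1487 in replicate 2 and 115 in replicate 3.

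The gap of 5.78 kb between Ighm, the mu constant gene, and Ighj4, which is known to hold the intronic enhancer Eμ, had 1 replicate 2 peak. It was chr12:113426920-113428097, 417 bp from Ighj4, with a score of 1836 and no replicate 3 peak. The files carry no enhancer annotation, so the place of a peak is given only relative to the annotated segments. The C genes themselves had weaker peaks: 3 of the 8 had a peak within 1 kb, Ighg2b with a score of 74.7, Ighg3 with 81.3 and Ighm with 84.8. Igha, Ighe, Ighg2c, Ighg1 and Ighd had none that close. The strongest peak between Igha and Ighm scored 609 and lay 11.6 kb from Ighg3. Between the D segment Ighd1-1 and Adam6b, a metalloprotease gene inside the locus, 2 peaks scored 316 and 639. No peak lay in the 56.9 kb from Adam6b to Adam6a, and none in the 46.1 kb from the last D segment to the first V segment.

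In Igl, the strongest peak of the enhancer side, chr16:19178838-19180453, had a score of 1808, and the next, chr16:19152239-19153494, had 1619. Both lay in the gap of 109.5 kb between Iglv1 and Iglc4, which separates the J-C clusters of the duplicated locus and is known to hold one of the lambda enhancers. They were 14.5 kb and 41.5 kb from Iglc4. Next in strength was chr16:19026746-19028306, which had a score of 1184 and lay 33.4 kb beyond Iglc1, the flank known for the other lambda enhancer, next to the pseudogene Gm10088. None of these 3 peaks had a replicate 3 peak. None of the 4 constant genes Iglc1, Iglc2, Iglc3 and Iglc4 had a replicate 2 peak within 1 kb, the closest peaks lying 5.13 to 8.67 kb away.

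In Tra/Trd, the enhancer side of 111 kb held 3 peaks, with scores of 307, 105 and 96.6 and no replicate 3 peak. The gap of 6.01 kb between Trdj2 and Trdc, which is known to hold the delta enhancer, had no replicate 2 peak. Trdc was 10.2 kb and Trac 33.4 kb from the closest peak inside the window. The window ends at the end of Trac, however, and the alpha enhancer is known to lie just beyond it. The first peak past that end, chr14:54226616-54228589, lay 2.42 kb outside and had a score of 3013 in replicate 2, above every Tra/Trd member, with no replicate 3 peak. In the rest of the series, 83.0% of the peaks with scores from 2500 to 3100 had a replicate 3 peak.

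In Trb, the gap of 9.51 kb between Trbc2 and Trbv31, which is known to hold the beta enhancer, had 2 peaks. The stronger, chr6:41553954-41555656, had a score of 2109 and lay 5.77 kb from Trbc2, and the weaker scored 194. A further peak, with a score of 819.7, overlapped Trbv31, the one V segment on the far side of the C genes. No replicate 2 peak lay in the 15.0 kb from Trbd1 to Trbc2, and no replicate 3 peak lay anywhere in Trb. Strong replicate 2 peaks thus lay in or beside the enhancer gaps of Igh, Igl and Trb and just past Trac, while the delta enhancer gap had none. Among them the peak beyond Igha and its neighbour outside the window were the ones with replicate 3 peaks. Strong peaks were not confined to these places. The highest score of each window was on its V side, with 3161 in Igh, 1899.5 in Igl, 2329.6 in Tra/Trd and 2476 in Trb.

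The sides were also compared by peak density, with each peak placed by its centre. The enhancer side and the V side had 45.3 (25.9 to 73.6) and 52.1 (43.4 to 62.0) peaks per Mb in Igh, and 64.2 (30.8 to 118) and 88.6 (35.6 to 183) in Igl. They had 27.1 (5.59 to 79.2) and 40.3 (31.3 to 51.1) in Tra/Trd, and 79.5 (9.62 to 287) and 17.1 (8.55 to 30.7) in Trb. The intervals overlapped in every locus, and the difference between sides was not tested. It was widest in Trb, where counting every peak that overlaps a side by 1 bp gave 119 peaks per Mb on the enhancer side and 18.7 on the V side. Peaks with scores of 1000 or more numbered 3 on the enhancer side and 16 on the V side of Igh, and 3 and 1 in Igl. They numbered 0 and 9 in Tra/Trd, and 1 and 1 in Trb. The sides differ in length, so these counts do not compare them. Per Mb, such peaks were denser on the enhancer side in Igh, Igl and Trb and on the V side in Tra/Trd. The 95% intervals of these rates overlapped in all 4 loci, and the differences were not tested. The centres of 2 Trb members fell outside the window and are in neither side.

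**Figure D3:**
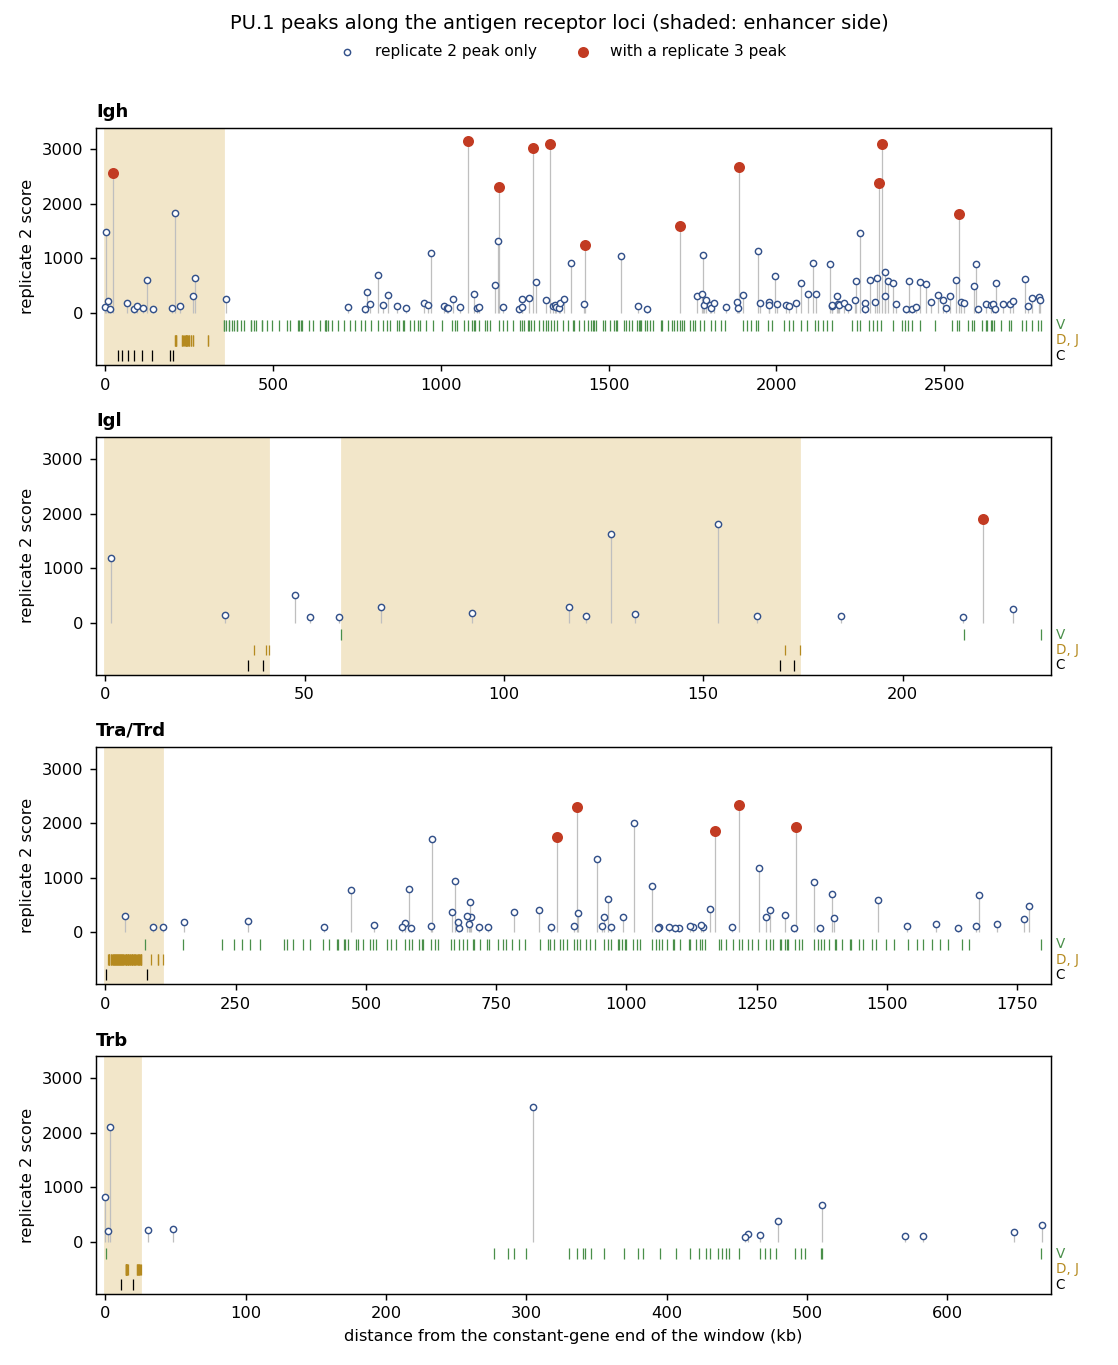
Replicate 2 score of every peak in the 4 loci against its distance in kb from the constant-gene end of the window. Filled points have a replicate 3 peak, ticks mark V, D, J and C segments, and shading marks the enhancer side. The recovered peaks are the tall ones, 16 of 17 on the V side, where most peaks lie, and Trb has none. In Igh, 10 of 127 V-side peaks (7.87%) and 1 of 16 enhancer-side peaks (6.25%) were recovered.

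On the V side of Igh, 10 of 127 peaks (7.87%) were found in both libraries, against 1 of 16 (6.25%) on its enhancer side. Peak chr12:114301303-114302418, with scores of 3161 in replicate 2 and 264 in replicate 3, lay 1.05 kb upstream of Ighv9-4. It had the highest replicate 3 score of the 4 loci. Peaks chr12:114493126-114494233 (3017 and 177) and chr12:114544430-114545654 (3100 and 232) lay at like places, 1.77 kb from Ighv10-2 and 1.60 kb from Ighv10-4, both on the downstream side. Another score of 3100, with 155 in replicate 3, belonged to chr12:115533098-115534317, 751 bp upstream of Ighv1-65. On the other side of Ighv1-65, 4.23 kb away, chr12:115526111-115527828 scored 2388 and 98.9 and overlapped Gm18340, a pseudogene. Gm18340 was the only one of the 35 Igh genes that are not receptor segments with a replicate 3 peak within 1 kb. Such peaks were rare elsewhere too, at 1.04% of RefSeq genes of 200 to 800 bp outside the receptor loci.

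The other shared peaks of the Igh V side were chr12:115107139-115108286 (2677 and 144), 11.5 kb from the nearest V segment, and chr12:114394250-114395316 (2317 and 114). Lower scores belonged to chr12:115764651-115765800 (1810 and 136), chr12:114930818-114931793 (1596 and 156) and chr12:114650302-114651327 (1246 and 74.2). Only the peak with 1810 overlapped a V segment, Ighv8-13. Over the 4 loci, 3 of the 17 shared peaks overlapped a V segment and 5 lay within 1 kb of one. Their median replicate 3 score, 136, equalled that of the whole replicate 3 list.

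Most peaks on the V side did not sit on V segments. In Igh, 26 of the 127 V-side peaks (20.5%) overlapped a V segment, 34 (26.8%) lay within 1 kb of one, and 46 (36.2%) were more than 5 kb away. Counted by segment, 33 of the 184 Igh V segments (17.9%, 12.7 to 24.3) had a replicate 2 peak within 1 kb, and 3 (1.63%) a replicate 3 peak. Outside the receptor loci, 43.0% of all RefSeq genes and 11.7% of those of 200 to 800 bp had a replicate 2 peak within 1 kb, and 1.04% of the short ones a replicate 3 peak. Stretches of 2300 bp, about the length of a segment with 1 kb on each side, held one in 8.78% of cases outside the receptor loci and in 16.2% on the Igh V side. The Igh V segments as a whole therefore had peaks about as often as stretches of like length across the V side, which take in the segments themselves.

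The Ighv8 family was different. Its members are spread among the Ighv1 segments of the distal part of the locus. A replicate 2 peak overlapped 15 of its 16 segments (93.8%, 69.8 to 99.8), including all 6 annotated as pseudogenes. The other 168 Igh V segments had a peak within 1 kb in 18 cases (10.7%, 6.47 to 16.4), and one overlapped 11 of them. The 16.2% of the 2300 bp stretches of the Igh V side lies just inside that interval. Families of at least 5 segments had a peak within 1 kb at 2 of 7 Ighv6, 12 of 92 Ighv1 (13.0%, 6.93 to 21.7), 2 of 21 Ighv5, 0 of 11 Ighv2 and 0 of 8 Ighv3 segments. Among these families, the interval of Ighv8 overlapped with that of Ighv6 only (3.67 to 71.0), a family with few members.

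Scores over Ighv8 segments ran from 86.8 to 1810 with a median of 491. The highest were 1810 at Ighv8-13, 1468 at Ighv8-9 and 1132 at Ighv8-6, and the lowest was 86.8 at Ighv8-4. Ighv8-5 was the segment without a peak. Only the peak at Ighv8-13 had a replicate 3 peak, with a score of 136. A merged interval lay within 1 kb of 10 of the 16.

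The peaks over Ighv8 segments had similar places. Their centres lay between 252 bp upstream and 275 bp downstream of the middle of the segment, with a median of 199 bp downstream, and 11 of 15 were on the downstream side. The 8 Ighv1 segments overlapped by a peak had centres from 629 bp upstream to 634 bp downstream, with 4 on each side. Segments of a family are alike in sequence, and the handling of reads that match several places is not stated. Its part in these counts was not tested.

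**Figure D4:**
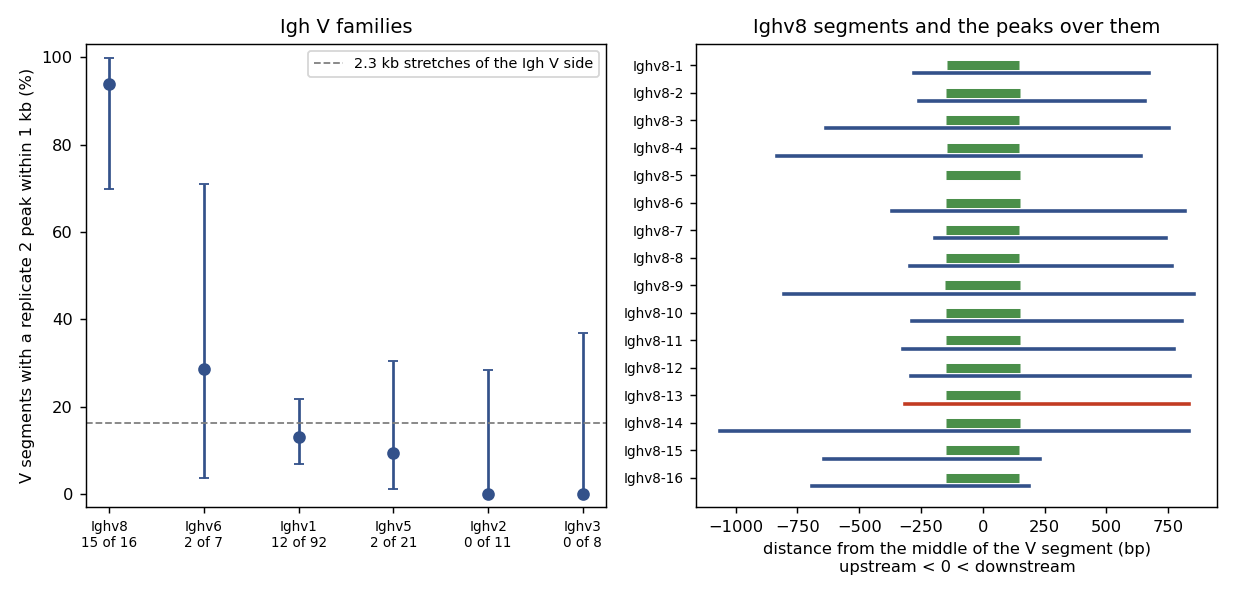
Share of V segments with a replicate 2 peak within 1 kb in the Igh families of at least 5 segments, with 95% Clopper-Pearson intervals (left), and the extent of the peak over each Ighv8 segment (right). The dashed line is the share of 2300 bp stretches of the Igh V side with a peak, 16.2%. Green bars are segments, blue lines peaks, and the red line the peak at Ighv8-13 with a replicate 3 peak.

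Peaks of the Igh V side were fewest nearest the D segments. The longest Igh stretch without a replicate 2 peak ran over 363 kb, chr12:113580402-113943175, and held 33 V segments, 18 of the Ighv5 and 10 of the Ighv2 family. These families are the ones nearest the D segments. In steps of 250 kb from the first V segment, the first held 1 peak (4.00 per Mb, 0.101 to 22.3) beside 26 V segments. The eighth, with 3 Ighv8 and 10 Ighv1 segments, held 24 (96.0 per Mb, 61.5 to 143). Their intervals did not overlap, but these were the steps with the fewest and the most peaks of the 10. The steps were also set after values were seen, so this contrast is descriptive only. The density did not climb evenly, since the fifth step, with 25 Ighv1 segments and no Ighv8, held 7 (28.0 per Mb, 11.3 to 57.7).

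In Igl, the strongest V-side peak, chr16:19245614-19246717, had scores of 1899.5 in replicate 2 and 70.3 in replicate 3. It was the only Igl peak in both libraries, and it lay 3.94 kb upstream of Iglv3 and within 1 kb of Gm35545, a long non-coding RNA gene. Weak peaks overlapped Iglv1 (99.4) and Iglv3 (107), and none lay within 1 kb of Iglv2.

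In Tra/Trd, V-side peaks lay closer to V segments. Of 68 peaks, 34 (50.0%) were within 1 kb of a V segment and 9 (13.2%) more than 5 kb away. Counted by segment, with Trdv5 of the enhancer side included, 32 of 136 (23.5%, 16.7 to 31.6) had a replicate 2 peak within 1 kb. The share was 12.6% for the 2300 bp stretches of the V side. The segments annotated as pseudogenes had one in 1 of 17 cases (5.88%, 0.149 to 28.7), and the others in 31 of 119 (26.1%, 18.4 to 34.9), with overlapping intervals. Peaks within 1 kb were at 7 of 9 Trav15 segments (77.8%, 40.0 to 97.2) and 6 of 9 Trav14 segments (66.7%, 29.9 to 92.5). Of the other Trav families of at least 5 segments, Trav9 had 4 of 11 (36.4%, 10.9 to 69.2), Trav7 5 of 14 (35.7%, 12.8 to 64.9), Trav13 3 of 13 (23.1%, 5.04 to 53.8), Trav6 3 of 15 (20.0%, 4.33 to 48.1) and Trav4 1 of 9. Trav12, with 10 segments, Trav5, with 9, Trav3, with 8, and Trav8, with 5, had none. The Trav14 interval overlapped those of all these families. The Trav15 interval did not overlap those of Trav12 (0 to 30.8), Trav5 (0 to 33.6) or Trav3 (0 to 36.9), but overlapped the others. Of the 136 Tra/Trd V segments, 96 are copies of 32 segments, as described below, and their peaks may not be independent. The intervals in this paragraph do not allow for that, and no difference between Trav families was tested.

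Much of the Tra V cluster exists in 3 copies in this build, whose segments carry the letter d, the letter n or no letter. There are 32 segments with all 3 copies, and 54 V-side peaks had one of them within 10 kb. When peaks were matched by their distance from the segment, with neighbours differing by at most 500 bp, 5 places had a peak in all 3 copies and 11 in 2 of them. These places took in 37 of the 54 peaks (68.5%). The share expected for segments that are not copies was not computed, so this share is descriptive only. The d, n and plain stretches held 16, 20 and 18 peaks, with 3, 2 and 0 of them in replicate 3.

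Among the places matched in this way, the strongest lay about 1.8 kb upstream of Trav4-3. Its peaks scored 1932 at Trav4d-3, 1999 at Trav4n-3 and 1713 at Trav4-3, and only the first had a replicate 3 peak (76.8). Upstream of Trav14-2, the scores were 401 at the d, 603 at the n and 798 at the plain copy. At Trav15-1 they were 929, 851 and 370. Between the Trav16 and Trav13-4 segments, the d copy had peaks with replicate 2 scores of 1849.9 and 424, the first with 122 in replicate 3. In that interval the n copy had a peak with scores of 1752 and 74.1, and the plain copy one with a score of 779 and no replicate 3 peak. The match by distance paired the n and plain peaks and neither of the d copy. At Trav6-7, the d copy had a single peak of 2584 bp with scores of 2329.6 and 155. The n copy had a pair of peaks with replicate 2 scores of 2303 and 362, the first with 115 in replicate 3, and the plain copy had 1 peak with a score of 133. The match by distance paired the n peak of 362 with the plain peak. It did not pair the wide d peak with the n peak of 2303, since their centres lay at -430 and 111 bp from the segment middles. Both scored higher than any peak of a matched place. The pseudogenes Gm8704 and Gm3922 had peaks with scores of 1183 and 1348, and their counterpart Gm17792 had none. Copies that are alike in sequence can share reads, so the peaks of a place may not be independent, and the part of shared reads in these values was not tested.

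**Figure D5:**
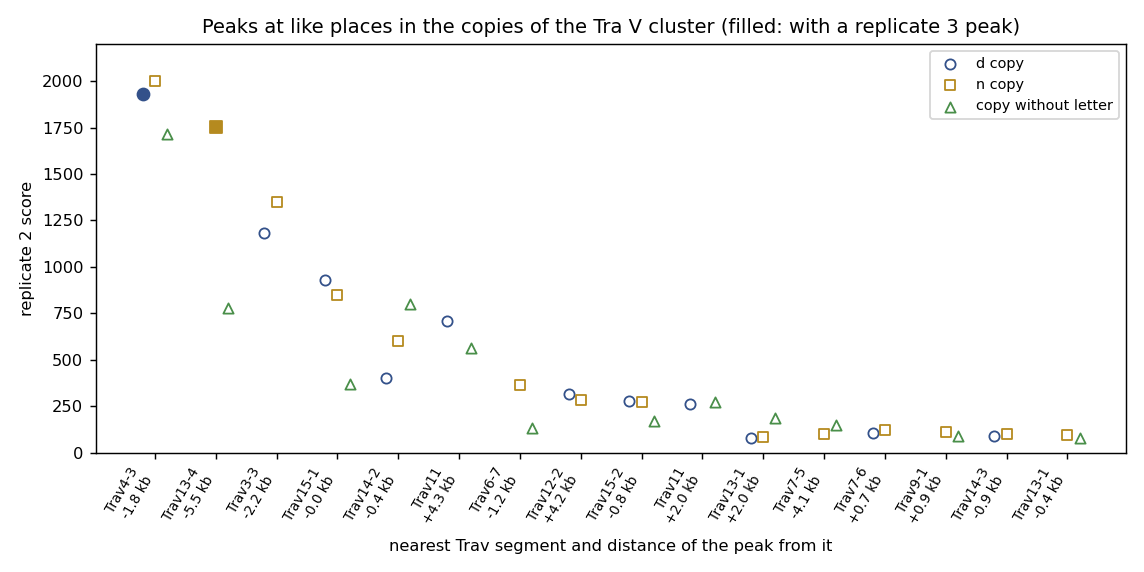
Replicate 2 scores of peaks at like distances from the same Trav segment in at least 2 of the 3 copies of the Tra V cluster, ordered by the highest score. Filled symbols have a replicate 3 peak. Scores of a place are close for Trav4-3 (1932, 1999 and 1713) and spread for Trav13-4 (1752 and 779).

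Outside the triplicated cluster, the longest Tra/Trd stretches without a replicate 2 peak ran over 145 kb, from Trav17 to Trdv2-1, and over 123 kb, from Trdv2-2 to Trdv3. In the Trav1 to Trav2 interval of 138 kb, which holds olfactory receptor genes, 5 peaks (36.1 per Mb) scored 111 to 677, and Olfr1509 (488) and Olfr1508 (242) had a peak within 1 kb.

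In Trb, the strongest V-side peak, chr6:41252834-41253953, had a score of 2476 and no replicate 3 peak. It lay 4.17 kb upstream of Trbv27 and overlapped the pseudogene Gm2719. Peaks overlapped Trbv2 (683), Trbv1 (315) and Trbv10 (133). Counted by segment, 6 of 35 (17.1%, 6.56 to 33.6) had a replicate 2 peak within 1 kb, against 6.09% of the 2300 bp stretches of the V side. The 6 include Trbv31, which lies on the enhancer side, and the peak with 683 counted for both Trbv2 and Trbv3. These shares therefore do not cover the same DNA, and their difference was not tested. The 114 kb from Trbv12-1 to Trbv26 had no peak, and the 251 kb from Trbv30 to Trbd1, which holds trypsin genes, had 2, with scores of 234 and 214. None of the 13 protein-coding genes in the window had a replicate 2 peak within 1 kb, against 2 of 4 in Tra/Trd and 0 of 2 in Igh. Outside the receptor loci, 43.0% of RefSeq genes of any type had one, and the difference was not tested.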

How the data were processed

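PU.1 ChIP peaks of 2 libraries of induced i660BM cells and a merged list were used as deposited. Per the submitters' processing notes, the authors used Trim Galore, Bowtie and MACS 1.4.1 on build mm10; the calling's control and thresholds are not stated there. The deposited score is the authors' value per peak, taken as minus 10 times log10 p. In the merged list every score is 0, and its making is not described. Starts were moved to 1-based positions. Segments and promoters came from RefSeq tables (GRCm38.p6, the same build), and no genome sequence was used. Overlap was at least 1 bp, and the reach around segments 1 kb. Named were peaks found in both libraries, the 3 strongest of each side, the segments nearest to them, all C genes, and Igh families of at least 5 segments; any other peak named was chosen after its value was seen. Members and lists were chosen with earlier results of these data known; the match of the Tra copies, the steps along Igh and the stretches of 2300 bp were chosen after seeing values. Densities have exact Poisson and shares Clopper-Pearson intervals, both at 95%, with no test, because only 1 group has peak lists. Library depth is unknown. The overlap code was tested on simulated intervals. Python 3.11.15, pandas 2.3.3, NumPy 2.4.6, SciPy 1.17.1 and matplotlib 3.10.9 were used. Alternatives were a score of at least 100, peak centres, a reciprocal overlap of 50%, windows of 500 bp and 2 kb, the merged list and the replicate 3 list alone.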

Additional observations from a re-analysis of the deposited data

How the results depend on the processing

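Of 60 values recomputed from replicate 2 or the merged list under the alternatives, 49 stayed within 1.5 times the count or inside the 95% interval and 11 did not. With the merged list, Igl held 9 and Tra/Trd 44 intervals, the share of V segments within 1 kb was 11.4% in Igh, 0% in Igl and 14.7% in Tra/Trd, and density was 22.7 per Mb on the enhancer side and 37.3 on the V side of Igh, and 25.5 on the V side of Tra/Trd. With a reach of 2 kb, the V segment share was 25.5% in Igh and 33.8% in Tra/Trd, which the wider reach itself raises. With a score of at least 100 in both lists, the Igl share with a replicate 3 peak was 0%. Without replicate 2, the replicate 3 list alone gave 11 peaks in Igh, 1 in Igl, 5 in Tra/Trd and 0 in Trb. V segment shares were then 1.63% in Igh, 0% in Igl, 1.47% in Tra/Trd and 0% in Trb. Densities were 2.83 per Mb on the enhancer side and 4.10 on the V side of Igh, 0 and 12.7 in Igl, 0 and 2.97 in Tra/Trd, and 0 and 0 in Trb. The cause of these shifts was not tested. No paired analysis was possible because all peak lists come from 1 group. Every statement on Trb and nearly all on V families rest on replicate 2 alone, and counts of few peaks leave wide intervals.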
